A study of Bos taurus with 32 samples.

Results

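DLG5, SVIL, KIDINS220, NHSL1, FMNL2 and IQGAP1 are bovine genes for scaffold and cytoskeleton proteins of the cell cortex, and each carried many N6-methyladenosine (m6A) sites in immature oocytes. They were chosen by gene symbol from a deposited table of m6A sites, 6 of the 6170 symbols listed, with their stage by stage counts already known. Their 427 listed adenosines are a small share of the 65535 in the table, and 405 of them were called in germinal vesicle (GV) oocytes, of 60417 called there in all. The counts by stage below are therefore a description of genes chosen for them, and no test was made.

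The sites come from m6A-SAC-seq, in which m6A receives an allyl group and is then read as a mutation in the cDNA. The labels describe 32 libraries of cattle (Bos taurus), where each of 8 stages has 2 input and 2 treated libraries, with 200 cells used for each replicate of a stage. In order of development the stages run as oocytes with a germinal vesicle (GV), oocytes arrested at metaphase II after maturation (MII), embryos of 2, 4, 8 and 16 cells, the morula and the blastocyst. Oocytes came from ovaries collected at a slaughterhouse, maturation in vitro took 22 to 23 h with the cumulus cells attached, and embryos were made with frozen Holstein semen; the treated libraries of embryo stages are titled as oocytes in the labels. No genotype or agent differs between stages, and the table gives 1 score per adenosine and stage, so no score has a replicate error and the reads behind it are unknown. Calling a site required a score of 0.1 or more at that stage. A score of 0 can mean an unmodified adenosine or no estimate, and the loss of a site cannot be told apart from fewer reads or less RNA of its transcript. The libraries are bulk, so fewer cells and less RNA per cell cannot be told apart either.

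In mammalian cells m6A is written on nascent RNA by a METTL3 and METTL14 complex, mostly at the motif DRACH, which reads any base but C, then A or G, the methylated A, then C, then any base but G. Reader proteins bind the mark and affect, among other things, how long a transcript lasts. Oocytes store maternal transcripts, which are cleared in steps through maturation and early cleavage until the embryo transcribes its own genome, in cattle mainly around the 8-cell and 16-cell stages. The cortex under the oocyte membrane holds the actin filaments, myosin and scaffolds that position the spindle and shape the polar body, and in the embryo the junctions and polarity of blastomeres.

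The GV-called sites called at every stage from GV to 8-cell are shown first, with those called at 16-cell or later. KIDINS220 and NHSL1 had no such site. Each line gives the 5-base motif listed by the authors, 5′ to 3′ on the transcript strand, with the called adenosine in capitals. The first 8 were called at every stage from GV to 8-cell, the next at 16-cell and the last 4 at blastocyst. Those last 4 were not called from 2-cell to morula.
DLG5, 33520158, 3′ untranslated: ggAct
DLG5, 33520172, 3′ untranslated: agAcc
DLG5, 33542893, coding: ggAcc
DLG5, 33579813, coding: tgAtg
DLG5, 33579846, coding: agAag
SVIL, 34658978, coding: agAcg
SVIL, 34659045, coding: ggAct
FMNL2, 43545052, coding: tgAtg
DLG5, 33543299, coding, at 16-cell: agAct
FMNL2, 43552158, coding, at blastocyst: tgAcc
IQGAP1, 22124053, coding, at blastocyst: agAcg
IQGAP1, 22154489, coding, at blastocyst: agAtc
IQGAP1, 22154511, coding, at blastocyst: ggAtc
These positions are on chromosome 28 for DLG5, 13 for SVIL, 2 for FMNL2 and 21 for IQGAP1, all on the minus strand, as the table gives them. The genome build is not given in the sources used here. G stands just before the adenosine in all 13, and DRACH is met by 6 of them. Of the 404 GV-called sites of the 6 genes with a listed motif, 388 had that G and 31.7% met DRACH.

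Over the 6 genes together, the GV sites were called again mainly at MII and 4-cell. At MII 184 of the 405 sites were called (45.4%, exact Clopper-Pearson 95% interval 40.5 to 50.4), against 34.1% of all GV-called sites. In 2-cell embryos the number was 35 (8.64%, 6.09 to 11.8), against 7.39% of all sites. In 4-cell embryos it was 135 (33.3%, 28.8 to 38.2), against 22.7%. The 6 genes thus stood above the share of all sites at MII and 4-cell, and their interval held that share at 2-cell. Genes with many sites did so too: the 272 symbols with at least 30 GV-called sites had medians of 43.3% at MII and 31.5% at 4-cell. Both medians lie inside the intervals of the 6 genes. With a minimum score of 0.2 the MII interval held the share of all sites too, with 33.5% (26.3 to 41.4) in the 6 genes and 30.0% over all. Such intervals cover counting error only and treat the sites of 1 transcript as if they were independent.

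From the 8-cell stage the order was different. At 8-cell 37 sites were called (9.14%, 6.51 to 12.4), against 9.32% of all GV-called sites, and without DLG5 the share was 5.99%. At 16-cell 1 site was called (0.247%, upper bound 1.37%), against 6.01%, and without DLG5 none was. In morulae none of the 405 was called, which allows up to 0.907%, against 4.42%, and in blastocysts 4 were (0.988%, 0.270 to 2.51), against 7.64%. Without IQGAP1 the blastocyst share was 0.297%. The genes were chosen with these late counts known, so the low late shares restate the choice.

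**Figure D1:**
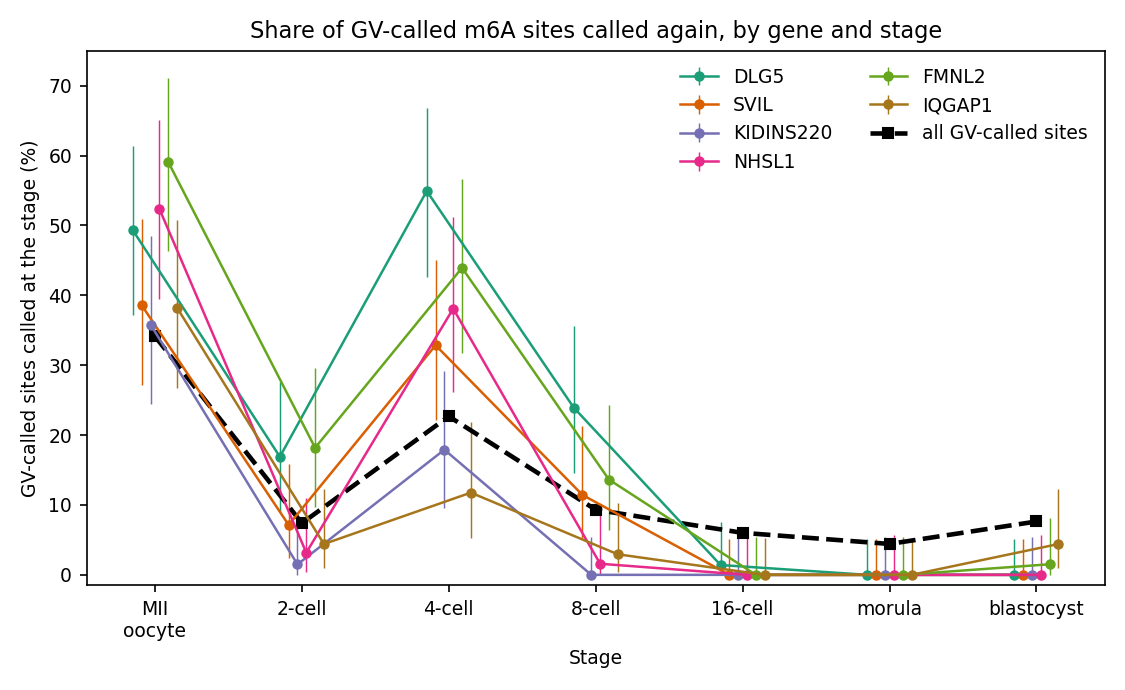
Percentage of the GV-called m6A sites of each gene that was called again (vertical axis) at the 7 later stages (horizontal axis). Coloured points are the 6 genes with exact 95% intervals and the dashed line with squares is all 60417 GV-called sites; each gene stood higher at 4-cell than at 2-cell, and DLG5 reached 54.9% at 4-cell while IQGAP1 reached 11.8%.

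Nearly all sites called at 8-cell were not called at 16-cell. Of the 37 sites called at 8-cell, 1 was called at 16-cell (2.70%), whereas 29.6% of all GV-called sites called at 8-cell were. The genes were chosen with their 16-cell counts known, so this contrast restates the choice. The 272 symbols with at least 30 GV-called sites had a median share of 0% at 16-cell. From 4-cell to 8-cell 26 of 135 were called at both stages (19.3%), against 26.2% of all such sites. The 2-cell gap lay inside the series: of 95 sites called at both MII and 4-cell, 22 were also called at 2-cell (23.2%, 15.1 to 32.9), against 26.6% of all such sites. The few calls at 2-cell were therefore followed by many at 4-cell, in these genes and in the table as a whole. How many reads each stage had is unknown, and the part of depth in this gap was not tested.

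By the last stage at which a site was called, the 405 sites fell into 4 parts. GV was the last call for 171 (42.2%, 37.4 to 47.2), against 52.0% of all GV-called sites, and MII for 73 (18.0%, 14.4 to 22.1), against 14.4%. The 2-cell or 4-cell stage was the last for 120 (29.6%, 25.2 to 34.3), against 16.1%. The 8-cell stage or a later one was the last for 41 (10.1%, 7.36 to 13.5), against 17.5%. The sites of the 6 genes were thus last called at 2-cell or 4-cell more often than all sites, and less often later. The genes were chosen with their late counts known, so the low late share restates that choice. The earlier shares are not independent of it, since the 4 parts make up the whole. This split was not made for the symbols with many sites.

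**Figure D2:**
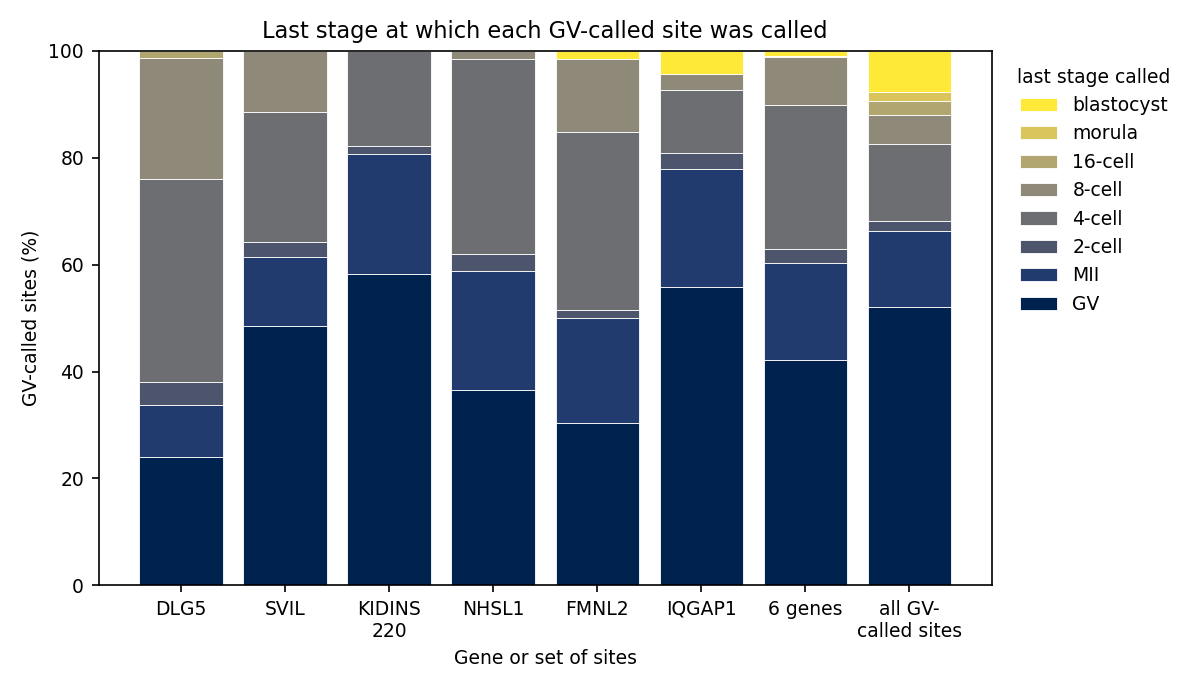
Stacked bars of the GV-called sites (vertical axis, percent) by the last stage at which each was called, for each of the 6 genes, the 6 together and all GV-called sites (horizontal axis). KIDINS220 and IQGAP1 had the tallest share last called at GV, 58.2% and 55.9%, and DLG5 the shortest, 23.9%.

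At 8-cell the proteins that tie signalling or polarity to the membrane, DLG5 and KIDINS220, had the highest and the lowest share of the 6. DLG5 (ENSBTAG00000013187), a scaffold of the MAGUK family that acts in cell polarity and at junctions, had 71 GV sites between 33518809 and 33642591 of chromosome 28, the 8th highest number of all symbols. Of these, 35 were called at MII, 12 at 2-cell, 39 at 4-cell, 17 at 8-cell, 1 at 16-cell and none in morulae or blastocysts. It was the only one of the 6 genes with more sites called at 4-cell than at MII. Among the 272 symbols with at least 30 GV-called sites it ranked 23rd at 4-cell, with 54.9% (42.7 to 66.8), and 38th at 8-cell, with 23.9% (14.6 to 35.5); the medians of those symbols were 31.5% and 8.79%. Its last calls were at GV for 17 sites, MII for 7, the 2-cell or 4-cell stage for 30 and the 8-cell stage or later for 17.

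The DLG5 sites called at 8-cell were most numerous in 3 stretches. In the 3′ untranslated region, the sites at 33520158 and 33520172 lie 14 bases apart. The first, at the motif ggAct, scored 0.814 at GV, 0.393 at MII, 0.357 at 2-cell, 0.378 at 4-cell and 0.188 at 8-cell. The second, at agAcc, scored 0.300, 0.307, 0.502, 0.459 and 0.336 at the same stages. Their order thus turned round at 2-cell, and both were 0 from 16-cell on.

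In the coding sequence, 11 GV sites between 33542678 and 33543631 held 5 of the 17 called at 8-cell. One of them, at 33543299 with the motif agAct, was the only GV site of the 6 genes called at 16-cell, with scores of 0.476 at GV, 0.402 at MII, 0 at 2-cell, 0.137 at 4-cell, 0.272 at 8-cell and 0.511 at 16-cell. The highest score of all 6 genes was in the same stretch, at 33542980 with the motif caAgc, which has no G before the adenosine. It scored 8.60 at GV, 10.3 at MII, 0 at 2-cell, 11.4 at 4-cell and 10.5 at 8-cell. Farther upstream, a group of 4 sites between 33579744 and 33579846 had all 4 called at 4-cell and 3 at each of MII, 2-cell and 8-cell.

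KIDINS220 (ENSBTAG00000007963) encodes a membrane scaffold that takes part in neurotrophin receptor signalling, and it is the only one of the 6 genes with no site called from 8-cell on. POLR1B, with 33 GV-called sites, had none from 8-cell on either, and KIDINS220 ranked 225th at 8-cell of the 272 symbols with many sites. Its 67 GV sites lie between 88488218 and 88580471 on the plus strand of chromosome 11, and 24 were called at MII, 1 at 2-cell and 12 at 4-cell. GV was the last call for 39 sites, MII for 15 and the 2-cell or 4-cell stage for 13. None of its 8 sites called at both MII and 4-cell was called at 2-cell. The single 2-cell call was in the 3′ untranslated region, at 88579637 with the motif tgAct, which scored 0.418 at GV, 0.329 at MII, 0.837 at 2-cell and 0 afterwards.

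The highest KIDINS220 score was at 88575907 in the coding sequence, with the motif gaAga. It was 1.96 at GV, 1.51 at MII, 0 at 2-cell, 2.02 at 4-cell and 0 from 8-cell on. Its score thus stayed between 1.51 and 2.02 at the 3 stages where it was called. The last 21 sites, between 88578353 and 88580471, span the end of the coding sequence and the 3′ untranslated region; 6 of them were called at MII, 1 at 2-cell and 3 at 4-cell.

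SVIL (ENSBTAG00000027444) encodes supervillin, a villin and gelsolin relative that links actin and myosin II to the membrane. It had 70 GV sites between 34569687 and 34679864 of chromosome 13, of which 27 were called at MII, 5 at 2-cell, 23 at 4-cell, 8 at 8-cell and none later. GV was the last call for 34, MII for 9, the 2-cell or 4-cell stage for 19 and the 8-cell stage for 8. These shares were near the medians of symbols with many sites, with ranks of 163 at MII, 132 at 4-cell and 108 at 8-cell among the 272.

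All 8 SVIL sites called at 8-cell were in the coding sequence, and 5 of them lay in 1 stretch of 550 bases between 34658874 and 34659423 with 9 GV sites. Within it, 34658978 at the motif agAcg scored 0.474 at GV, 0.342 at MII, 0.442 at 2-cell, 0.317 at 4-cell and 0.233 at 8-cell. At 34659045 with the motif ggAct the scores were 0.407, 0.288, 0.252, 0.241 and 0.113. Among the stages where they were called, both were thus highest at GV and lowest at 8-cell. The highest SVIL score was elsewhere, at 34573595 with the motif gtAcc, with 5.90 at GV, 3.06 at MII, 0 at 2-cell, 4.75 at 4-cell and 0 later.

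SVIL is the only one of the 6 genes with listed sites called at MII and not at GV. It lies on the minus strand of chromosomes 10 to 19, a window where such sites are listed, and whether that listing is complete was not tested. SVIL had 49 listed sites called at MII and 70 at GV, a ratio of 0.700, against 0.714 for the window (8217 and 11505). Genes whose symbols start with RPL or MRPL were left out of the window counts. Of its 22 sites called at MII and not at GV, all were in coding sequence and 4 had DRACH (18.2%). Of such sites in the window, 75.85% of those with a known region were coding, and 29.6% of those with a listed motif had DRACH. Later calls among the 22 were 5 at 4-cell (22.7%) and 1 each at 2-cell, 8-cell and 16-cell (4.55% each). In the window 13.7% of such sites were called at 4-cell, 2.75% at 2-cell, 3.73% at 8-cell and 2.66% at 16-cell. The site at 34658889, agAct, inside the late stretch, scored 0.0891 at GV, 0.102 at MII, 0.0808 at 2-cell, 0.190 at 4-cell, 0.254 at 8-cell and 0.527 at 16-cell, which was its highest value. The other 5 genes lie outside that window, and every listed site of theirs was called at GV. Whether they had sites first called after GV is therefore unknown, and the 22 sites cannot be taken as particular to SVIL.

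The 2 regulators of actin assembly had the highest shares at MII and differed after that. NHSL1 (ENSBTAG00000000245), a Nance-Horan syndrome family protein that acts on the WAVE complex and cell migration, had 63 GV sites between 76206163 and 76463040 of chromosome 9. Of these, 33 were called at MII, 2 at 2-cell, 24 at 4-cell, 1 at 8-cell and none later. None of its 18 sites called at both MII and 4-cell was called at 2-cell. Last calls were at GV for 23, MII for 14, the 2-cell or 4-cell stage for 25 and the 8-cell stage for 1.

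NHSL1 had the highest median GV score of the 6 genes, 0.220, against medians of 0.158 to 0.187 in the others. It also had the largest share of DRACH, 32 of 63 sites (50.8%), against 18.2% to 35.7% in the others. Many of its sites lay close together in the coding sequence, 29 of them between 76212780 and 76216522, with 17 called at MII, 1 at 2-cell, 14 at 4-cell and 1 at 8-cell. The 8-cell site was 76215898 with the motif ggAca, which scored 1.71 at GV, 2.03 at MII, 0 at 2-cell, 2.02 at 4-cell and 2.60 at 8-cell. Its neighbour at 76215673, also ggAca and the highest of the gene at GV, scored 2.13 at GV, 1.17 at MII, 0 at 2-cell, 0.338 at 4-cell and 0 later. With the same motif, the first was highest at its last call and the second was lowest.

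FMNL2 (ENSBTAG00000026851) encodes a formin, a protein that elongates actin filaments. Its 66 GV sites lie between 43534112 and 43866270 of chromosome 2, and 39 were called at MII, 12 at 2-cell, 29 at 4-cell, 9 at 8-cell, none at 16-cell or in morulae and 1 in blastocysts. At MII its share of 59.1% (46.3 to 71.0) ranked 27th of the 272 symbols with many sites, whose median was 43.3%. At 2-cell its 18.2% (9.76 to 29.6) was the highest of the 6 genes, and 10 of its 23 sites called at both MII and 4-cell were also called at 2-cell. The last call was at GV for 20 sites, MII for 13, the 2-cell or 4-cell stage for 23 and the 8-cell stage or later for 10.

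FMNL2 differed from the other genes in the make-up of its sites. DRACH was met by 12 of 66 (18.2%), the smallest share of the 6, and 20 (30.3%) lay in the 3′ untranslated region. A run of 23 sites between 43534112 and 43536134 held 13 called at MII, 2 at 2-cell, 7 at 4-cell and 1 at 8-cell. Its highest GV score was 0.689, at 43534502 with the motif ggAca, and that site was called at GV only. The site at 43545052, tgAtg, scored 0.258 at GV, 0.260 at MII, 0.228 at 2-cell, 0.279 at 4-cell and 0.389 at 8-cell. The only call after 8-cell was at 43552158, tgAcc, with 0.437 in blastocysts.

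IQGAP1 (ENSBTAG00000013060), a scaffold that binds the GTPases CDC42 and RAC1, actin and junction proteins, had 68 GV sites between 22108325 and 22214164 of chromosome 21. It had 26 called at MII, 3 at 2-cell, 8 at 4-cell, 2 at 8-cell, none at 16-cell or in morulae and 3 in blastocysts. GV was the last call for 38, MII for 15, the 2-cell or 4-cell stage for 10 and the 8-cell stage or later for 5. Its 4-cell share of 11.8% (5.22 to 21.9) was the lowest of the 6, and ranked 234th of the 272 symbols with many sites. KIDINS220 was the only other of the 6 with GV as the last call of most of its sites.

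The sites of IQGAP1 called in blastocysts were not those called at 8-cell. In blastocysts 22124053 scored 0.391, against 0.321 at GV and 0.279 at MII, and was 0 between. The sites 22154489 and 22154511 lie 22 bases apart and scored 0.284 and 0.123 in blastocysts, with no call from 2-cell to morula. At 8-cell the calls were 22122194 at the motif agAcc and 22124935 at agAtg. Its highest score was 3.10 at 22150583, gtAtc, at GV only, and its site called at the most stages was 22132924, agAct, with 0.217 at GV, 0.218 at MII, 0.601 at 2-cell and 0.287 at 4-cell.

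**Figure D3:**
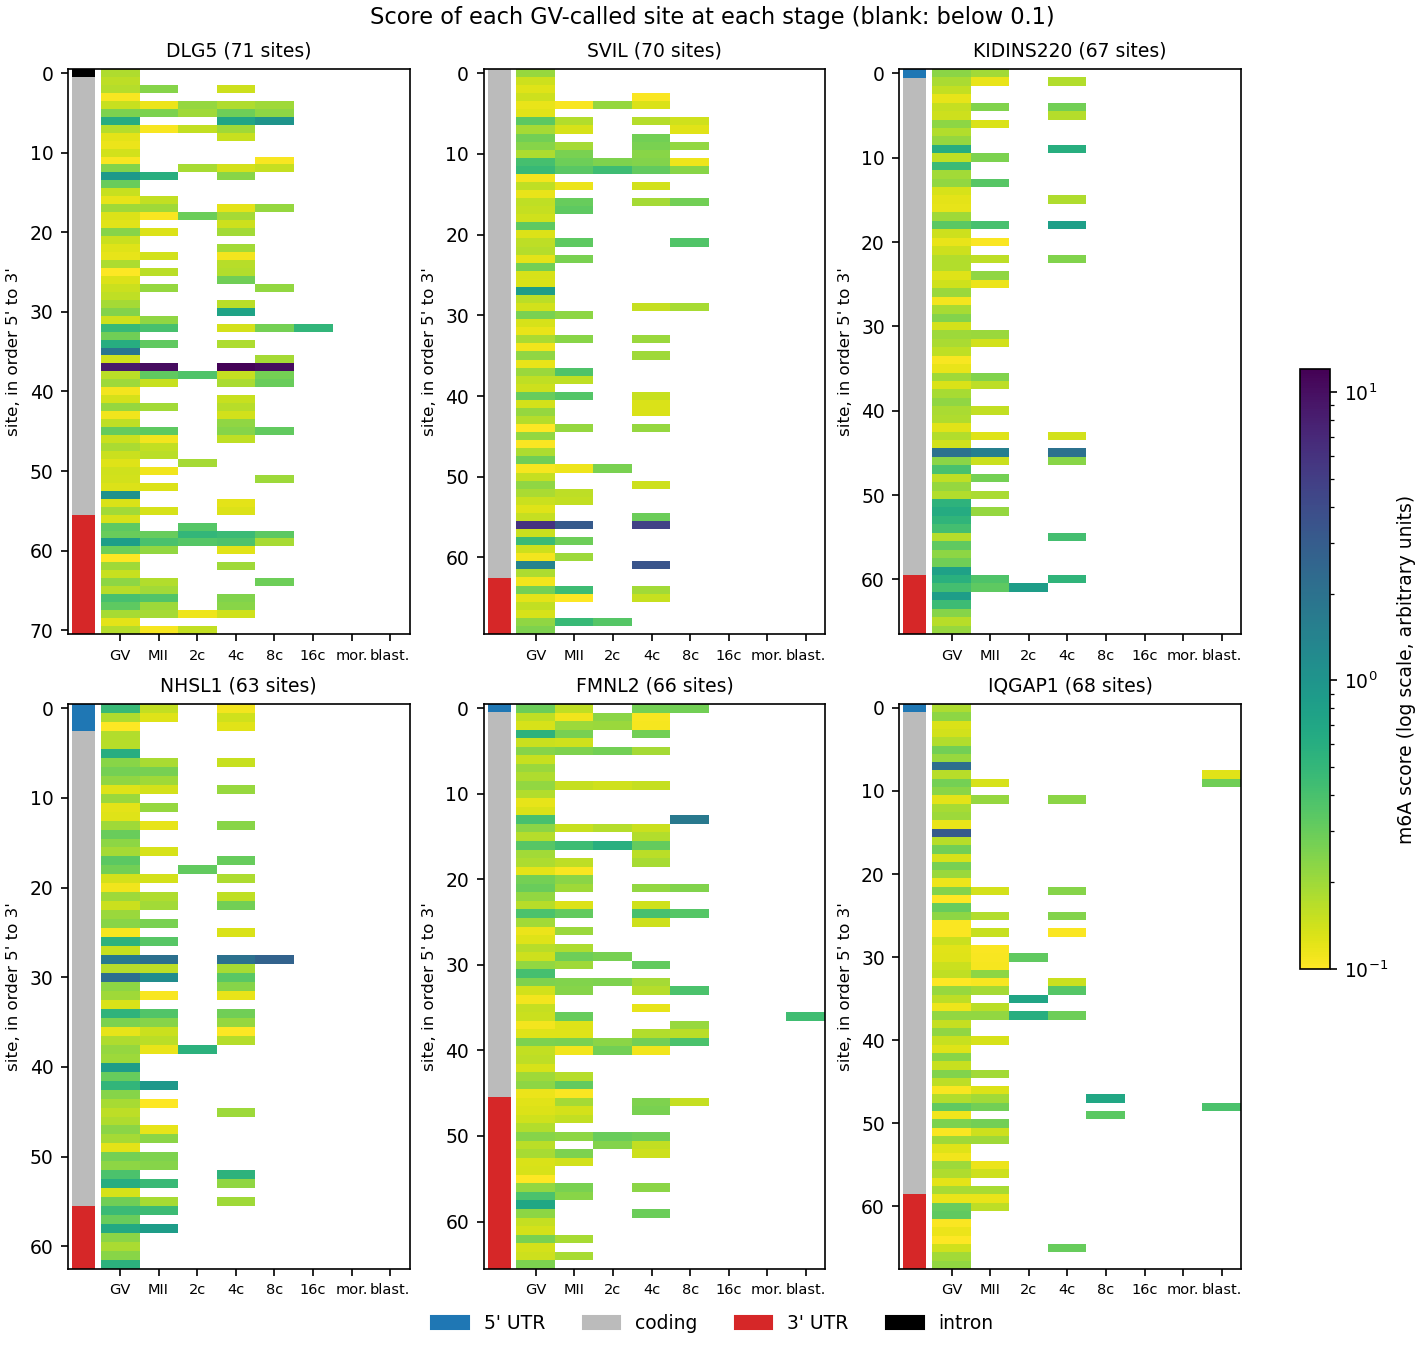
Score (colour, log scale) of every GV-called site of the 6 genes, 1 row per site in 5′ to 3′ order of the transcript (vertical axis) and 1 column per stage (horizontal axis); white means below 0.1 and the strip at the left gives the region. Columns are well filled at GV, MII and 4-cell and sparse at 2-cell, and the columns from 16-cell on hold 5 calls in all 6 panels.

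In the order of their shares, the genes ran FMNL2, NHSL1, DLG5, SVIL, IQGAP1 and KIDINS220 at MII, from 59.1% down to 35.8%, and each neighbouring pair had overlapping intervals. At 4-cell the order was DLG5, FMNL2, NHSL1, SVIL, KIDINS220 and IQGAP1. The intervals of DLG5 (42.7 to 66.8) and FMNL2 (31.7 to 56.7) lay wholly above those of KIDINS220 (9.61 to 29.2) and IQGAP1 (5.22 to 21.9), while neighbours again overlapped. At 8-cell DLG5 (14.6 to 35.5) lay above KIDINS220, NHSL1 and IQGAP1, whose upper bounds were 5.36, 8.53 and 10.2%.

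Many genes with as many sites had none left in the last stages. Of the 272 symbols with at least 30 GV-called sites, 138 (50.7%) had none of these sites called in morulae or blastocysts, and 105 (38.6%) had none from 16-cell on. Among the 6 genes, 4 had no GV-called site called in morulae or blastocysts, and 3, SVIL, KIDINS220 and NHSL1, had none called from 16-cell on. The 6 were chosen with those counts known, and many other symbols with as many sites had the same outcome.

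By region, 333 of the 405 sites were in coding sequence (82.2%, 78.1 to 85.8) and 65 in 3′ untranslated regions (16.0%), with 6 in 5′ untranslated regions and 1 in a DLG5 intron. Over all GV-called sites with a known region the shares were 71.0% and 22.9%. At MII 45.6% of coding sites (40.2 to 51.2) and 43.1% of 3′ untranslated sites (30.8 to 56.0) were called, and at 4-cell 33.9% and 27.7%. Over all GV-called sites the coding and 3′ untranslated shares were 34.2% and 36.6% at MII, and 23.9% and 21.0% at 4-cell. At 2-cell the order was the other way round, 7.81% (5.16 to 11.2) in coding sequence and 13.8% (6.53 to 24.7) in 3′ untranslated regions, against 7.09% and 8.27% over all sites. The intervals of both regions overlapped at each of these stages, so the counts do not separate the regions. In 3′ untranslated regions DLG5 had 5 of 15 sites called at 2-cell and 7 of 15 at 4-cell, and NHSL1 had none of 7 at either.

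By motif, 128 of the 404 sites with a listed motif met DRACH (31.7%, 27.2 to 36.5), against 34.2% of all GV-called sites. DRACH sites were called more often at MII, 58.6% (49.6 to 67.2), against 39.5% (33.7 to 45.5) outside DRACH. Over all GV-called sites these shares were 45.3% and 29.4%. At 4-cell 40.6% of DRACH sites (32.0 to 49.7) and 30.1% of the others (24.7 to 35.9) were called, and at 8-cell 11.7% and 7.97%. The intervals of DRACH and other sites were thus apart at MII and overlapped at 4-cell and 8-cell.

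Taken gene by gene, the shares at MII were not alike. In NHSL1 23 of 32 DRACH sites were called at MII and 10 of 31 others, and in SVIL 13 of 21 and 14 of 49. In FMNL2 they were 9 of 12 and 30 of 54, and in IQGAP1 9 of 16 and 17 of 52. In DLG5 the counts were 13 of 25 (52.0%) and 22 of 45 (48.9%), and in KIDINS220 8 of 22 (36.4%) and 16 of 45 (35.6%). The shares of DRACH and other sites were thus farther apart than in the whole table in NHSL1, SVIL, FMNL2 and IQGAP1, and within a few points of each other in DLG5 and KIDINS220. Their intervals were apart in NHSL1 only (53.3 to 86.3 and 16.7 to 51.4) and overlapped in each of the other genes.

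Outside DRACH, the sites were grouped by the base before the adenosine and the base after it. Sites with GAG were called at MII in 14 of 59 cases (23.7%, 13.6 to 36.6), at 4-cell in 10 and at 8-cell in none. The last count allows up to 6.06%, against 6.95% of all GV-called GAG sites at 8-cell. Sites with GAT were called in 43 of 99 cases at MII and 38 at 4-cell, and sites with GAA in 30 of 74 and 16. Sites with GAC outside DRACH, 34 in number, had 19 called at MII, 15 at 4-cell and 6 at 8-cell, shares close to or above those of DRACH. GAG had the smallest share of these classes at MII and 4-cell, 23.7% and 16.9% in the 6 genes against 23.0% and 17.4% of all GV-called GAG sites, so these shares were near those of the whole table. For GAT the shares at MII were 43.4% in the 6 genes and 31.2% over all sites, for GAA 40.5% and 23.8%, and for GAC outside DRACH 55.9% and 40.3%. At 4-cell they were 38.4% and 23.6% for GAT, 21.6% and 17.2% for GAA, and 44.1% and 27.7% for GAC outside DRACH. At 8-cell GAC outside DRACH had 17.6% and 12.7%.

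**Figure D4:**
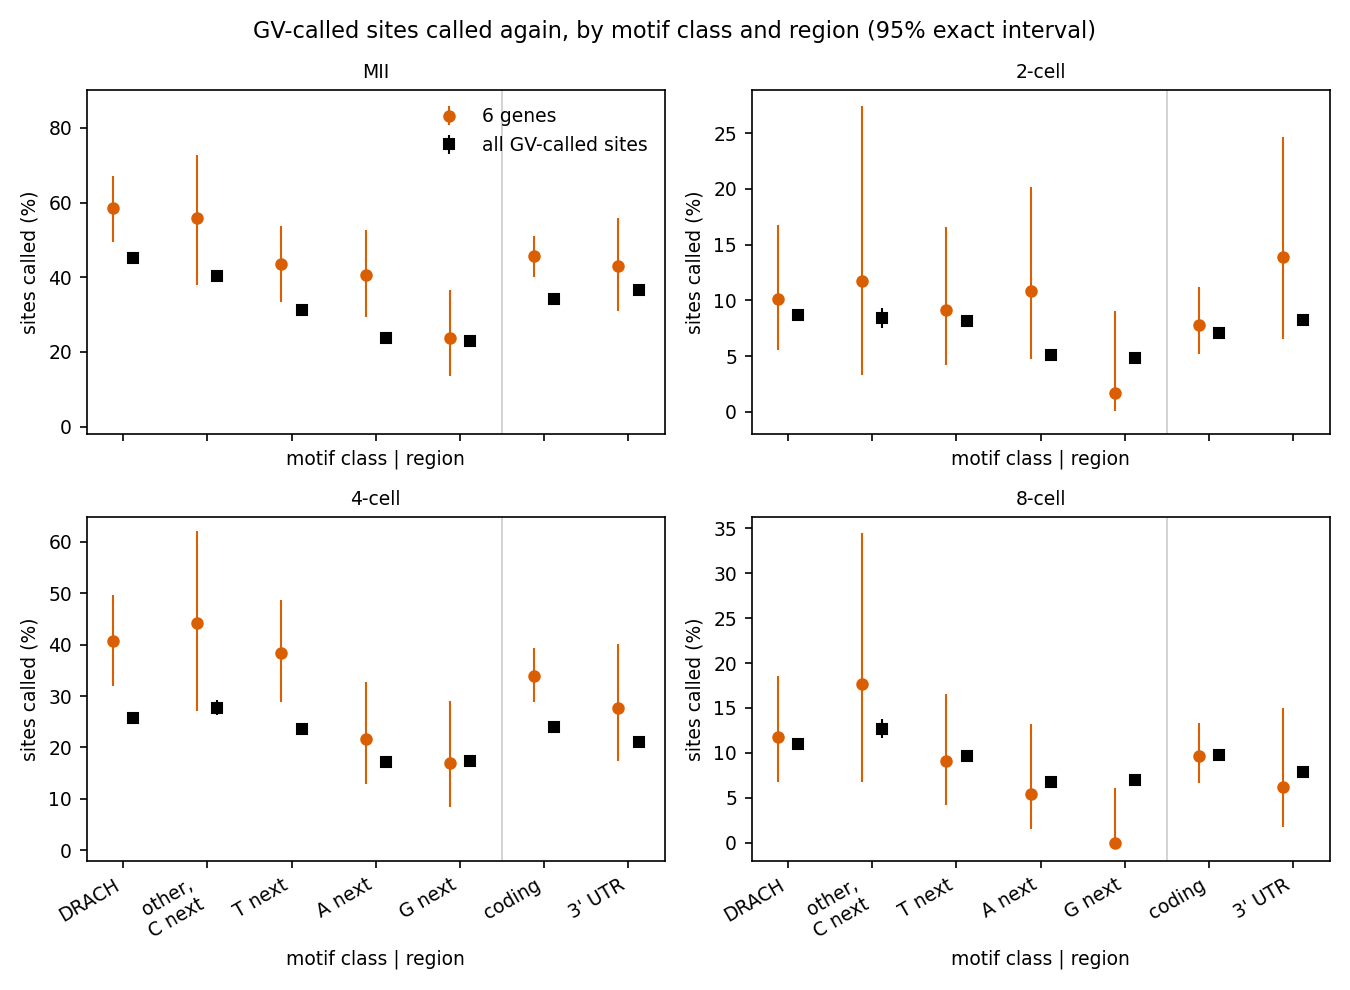
Percentage of GV-called sites called again (vertical axis) at MII, 2-cell, 4-cell and 8-cell by motif class and region (horizontal axis); circles are the 6 genes and squares all GV-called sites, with exact 95% intervals. Classes outside DRACH have G before the adenosine and are named by the base next to it; DRACH stood above the class with G next in the 6 genes in all 4 panels, with 58.6% and 23.7% at MII, while coding and 3′ untranslated sites had overlapping intervals.

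Scores at sites called at both of 2 stages lay close to each other where many were shared. The median log2 ratio of the MII to the GV score was -0.11 over 184 sites (quartiles -0.45 and 0.26), against -0.11 over all GV-called sites called at MII. For the 4-cell to the GV score it was -0.03 over 135 sites, against -0.06 over all. Few sites were shared at 2-cell and 8-cell, and their medians were 0.55 over 35 sites and 0.37 over 37, against 0.31 and 0.16 over all. Only scores of at least 0.1 at both stages enter these ratios. Sites called again at MII had a median GV score of 0.190, and those not called 0.166.

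Very high scores were few and lay in coding sequence. Of the 405 sites, 10 scored above 1 at GV. Of these, 4 had the motif ggAca and 6, each with another motif, had no G before the adenosine. The ggAca sites of the 6 genes, 15 in number, had a median GV score of 0.602, against 1.45 over all sites with that motif. One of the 2 SVIL sites above 1 lies at 34570437, gaAcc, with 1.41 at GV, 0 at MII and 3.46 at 4-cell. The adenosine next to it at 34570438, tgAac, scored 0.0895 at GV and 0.249 at MII and was 0 from 2-cell on. Whether scores can be compared across motifs was not tested, and the counts above give each call the same weight.

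**Figure D5:**
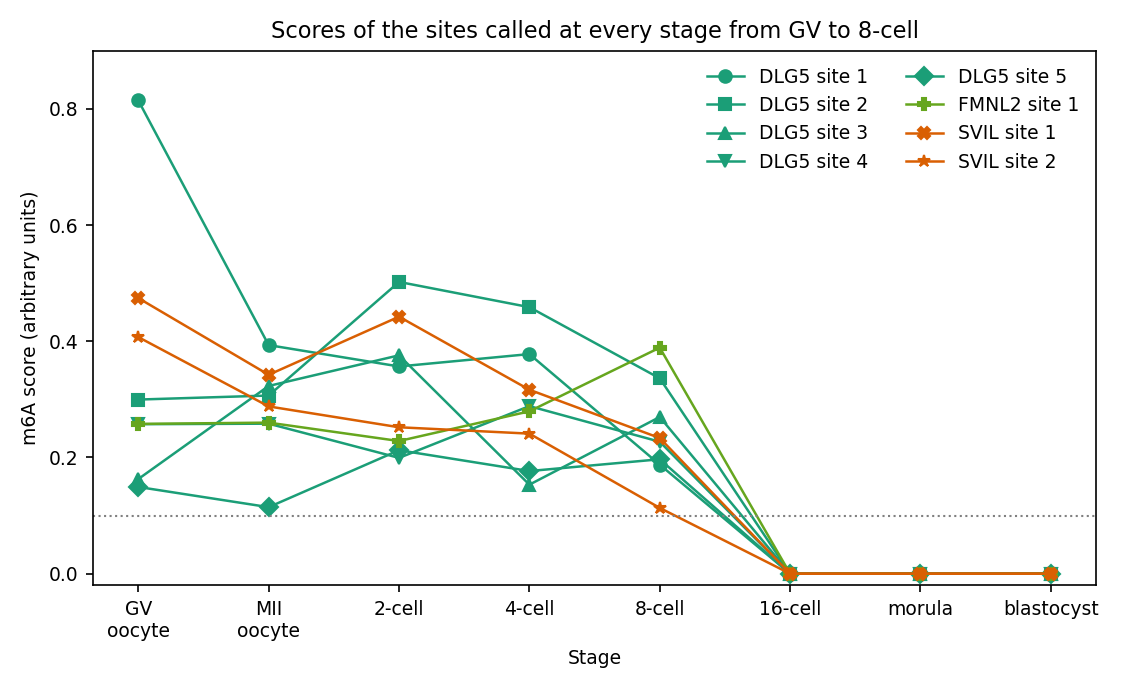
Score (vertical axis) at each of the 8 stages (horizontal axis) of the 8 sites called at every stage from GV to 8-cell, numbered by position within each gene; the dotted line is the minimum of 0.1. Most lie between 0.1 and 0.5 up to 8-cell, with the highest DLG5 value 0.814 at GV, and all 8 are 0 from 16-cell on.

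The relatives and partners of the 6 genes, listed without the 6, are given here by their share of GV-called sites called later, to be read against 34.1% of all sites at MII, 22.7% at 4-cell and 7.64% in blastocysts. Of the MAGUK and polarity scaffolds, 20 of 34 genes had 268 GV-called sites, with 33.2% called at MII, 4.85% at 2-cell, 22.8% at 4-cell, 4.85% at 8-cell and 4.10% in blastocysts. In this list PALS1, a partner of the Crumbs polarity complex, had 18 of 47 sites called at 4-cell and PATJ none of 19. The partners of KIDINS220 in neurotrophin and CRK signalling, 8 of 15 genes with 117 sites, had 38.5% at MII, 34.2% at 4-cell and 11.1% in blastocysts. The adaptor CRK itself had 11 of 34 sites called in blastocysts, whereas KIDINS220 had none of 67.

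Among the villin and gelsolin relatives and cortical myosin genes, 11 of 21 had 144 sites, of which 29.9% were called at MII, 23.6% at 4-cell and 22.9% in blastocysts. RACGAP1, a part of the centralspindlin complex of cytokinesis, had 24 of 47 called at 4-cell and 7 in blastocysts, and the myosin heavy chain gene MYH10 4 and 3 of 27. The Nance-Horan, WAVE and ARP2/3 genes, 19 of 23 with 151 sites, had 29.1%, 17.2% and 16.6% at MII, 4-cell and blastocyst. WASF2, a WAVE subunit, had 7 of 13 sites called at 4-cell and 6 in blastocysts, and NCKAP1 none and 1 of 14. Both lists thus had blastocyst shares above that of all sites.

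The other formins were lower than FMNL2: 4 of 13 had 76 sites, of which 18.4% were called at MII, 1.32% at 2-cell, 18.4% at 4-cell, 1.32% at 8-cell and none later. FMNL3, the nearest relative of FMNL2 among them, had 5 of 19 sites called at MII and 5 at 4-cell, and DIAPH1 had 4 and 2 of 28. Membrane to actin linkers, 20 of 25 genes with 537 sites, had 38.9%, 35.8% and 14.9%, led in number by the spectrin gene SPTAN1 with 46 of 93 sites called at 4-cell and 5 in blastocysts.

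The labelled cell type was checked by marker lists. Of 18 oocyte markers, 16 had 289 GV-called sites, with 55.7% called at MII, 48.8% at 4-cell, 31.5% at 8-cell and 1.04% in blastocysts; BMP15 had 22 of 28 called at 4-cell. Of 17 cumulus and granulosa markers, 4 had 32 GV-called sites, of which 37.5% were called at MII, 28.1% at 4-cell and none from 16-cell on. Most were in STAR with 16 and HAS2 with 14. The other 13 had no GV-called site, and the part of cumulus cells in the sites of the 6 genes was not tested.

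The symbols most like each gene were found among the 272, by the distance between their 7 percentages in percentage points. ABL1, a tyrosine kinase gene, was nearest to DLG5 at a distance of 7.06, with 24 of 43 sites called at 4-cell and 8 at 8-cell. PPFIA1 was nearest to SVIL (4.92), POLR1B to KIDINS220 (3.88), MIA3 to NHSL1 (5.48), LPIN2 to FMNL2 (8.03) and OSBPL1A to IQGAP1 (4.69). The 2nd nearest were BOC, RASA1, MYO5B, MTMR3, NUSAP1 and, for IQGAP1, its relative IQGAP2 at 5.22. IQGAP2 had 16 of 47 sites called at MII, 5 at 4-cell and 3 in blastocysts. DLG5 and FMNL2 had the most distant nearest symbols, and KIDINS220 the closest.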

How the data were processed

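The authors deposited 1 score per adenosine and stage, with chromosome, position, strand, gene, region and 5-base motif. The submitters' processing notes name Trimmomatic 0.39 and STAR 2.5.3a. Not given in the sources used here are the caller, the genome build, the scale of the score and the way arms and replicates became 1 column. Each of the 8 stage columns was taken as a pooled value, and 0 columns were left without a stage. The members and gene lists were chosen with earlier results of these data known.

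A site was called at a score of at least 0.1. Rows with the member symbols were counted by stage, region and motif, with exact Clopper-Pearson intervals at 95%. Stretches are runs of GV-called sites at most 1000 bases apart. Like genes had at least 30 GV-called sites and the smallest Euclidean distance over 7 stages. From each list, genes with at least 10 GV-called sites and the most or fewest called at 4-cell were eligible to be named. One of the lists is not reported here. Of the member sites, the highest, the longest called and the latest were named; others were chosen after their values were seen. Alternatives were a minimum of 0.2, any score above 0, DRACH motifs, coding sequence, a GV minimum of 0.2 and each gene left out. The counting was tested on a simulated table of 65535 sites, and 10 of 10 checks passed. Calculations ran in Python 3.11.15 with pandas 2.3.3 and numpy 2.4.6, intervals with scipy 1.17.1, and figures with matplotlib 3.10.9.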

Additional observations from a re-analysis of the deposited data

How the results depend on the processing

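Of 157 recomputed shares of the 6 genes together, 140 stayed within the exact interval of the value reported above and 17 left it. With a score of at least 0.2 at every stage, 33.5% of GV-called sites were called at MII (26.3 to 41.4, against 30.0% of all sites) and 26.7% at 4-cell (20.1 to 34.2, against 17.8%). The 6 genes then no longer stood above all sites at MII beyond the interval. In that setting the last call was at GV for 51.6%, at MII for 13.7% and at 2-cell or 4-cell for 23.6%. With any score above 0, 52.5% were called at MII, against 39.3% of all sites. With DRACH motifs only, 58.6% were called at MII and 40.6% at 4-cell, against 45.3% and 25.8% of all DRACH sites. The last call in the 6 genes was then at GV for 29.7% and at 2-cell or 4-cell for 36.7%. With a GV score of at least 0.2 and later stages kept at 0.1, the shares were 51.6% at MII, 39.8% at 4-cell and 12.4% at 8-cell. All sites then had 37.6%, 23.2% and 9.20%. Without DLG5 the shares of the other 5 genes were 28.7% at 4-cell, 5.99% at 8-cell and 0% at 16-cell, and 7.19% were last called at 8-cell or later. Under coding sequence only and without each of the other 5 genes none of these shares and ratios left its interval. The cause of these changes was not tested. Of 312 further shares, for single genes, regions and motifs, 30 moved.

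No paired analysis was possible because the deposited columns give 1 value per stage and carry no replicate number. No depth is given, so the reads behind a missing call are unknown.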
